A study of Homo sapiens with 12 samples.

Results

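RET is the receptor tyrosine kinase of the GDNF family of growth factors. The genes described here are RET, 3 of its co-receptors (GFRA1, GFRA2 and GFRA3) and 2 of its ligands (ARTN and NRTN), 6 of the 61552 genes in the counts table, found by gene symbol and Ensembl identifier. They were selected on their measured levels, the CPM (counts scaled to library size) of each library across the 4 groups, so their levels and differences are given as a description, with standard errors (SE) and without a test.

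A GDNF-family ligand does not bind RET alone. It binds a GFRA co-receptor that is held in the membrane by a lipid anchor, and the pair brings RET molecules together, which then phosphorylate each other on tyrosines. NRTN (neurturin) prefers GFRA2, ARTN (artemin) prefers GFRA3 and GDNF prefers GFRA1. RET signalling is needed for the enteric and parts of the sympathetic nervous system, the lineage from which neuroblastoma arises, and activates the ERK and PI3K pathways through docked adaptor proteins.

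Polyadenylated RNA of human neuroblastoma lines in culture was sequenced after an overnight culture with or without ML210, a covalent inhibitor of the lipid peroxide-reducing enzyme GPX4. The groups were cells labelled SK-N-BE(2) with ML210, cells labelled SK-N-BE(2) control, cells labelled SK-N-AS with ML210 and cells labelled SK-N-AS control, each of 3 libraries, 1 from each of 3 batches. The labels give all cells as wild type, and the sources used here do not state the dose of ML210 or the content of the control medium. There is 1 line under each label, and nothing beyond the batch label states that the libraries of a group came from separate cultures, so any p-value measures only the spread between these libraries.

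The line labels went against the study's own description. That description calls SK-N-BE(2) MYCN-amplified and SK-N-AS not amplified, but MYCN averaged 0.154 and 0.166 CPM in ML210 and control libraries labelled SK-N-BE(2), against 3855 and 3558 CPM in ML210 and control libraries labelled SK-N-AS. Lines are therefore called by their labels throughout, and every direction between lines rests on those labels. The libraries held 54047293 to 83481963 counted reads, and the first principal component carried 86.5% of the variance. GPX4, the target of ML210, averaged 234.3 ± 17.2 and 246.8 ± 9.23 CPM in ML210 and control libraries labelled SK-N-BE(2), and 248.4 ± 4.88 and 269.5 ± 11.2 CPM in those labelled SK-N-AS (SD, n = 3 each). All 8 markers of the sympathoadrenal lineage exceeded 1 CPM in cells labelled SK-N-AS, against 7 of 8 in cells labelled SK-N-BE(2), where TH, the rate-limiting enzyme of catecholamine synthesis, averaged 0.124 CPM with ML210 and 0.372 CPM in controls. These 8 markers summed to 960.4 to 1371 CPM with ML210 and 1094 to 1431 CPM in controls labelled SK-N-BE(2). Labelled SK-N-AS, they summed to 6569 to 6684 CPM with ML210 and 7041 to 7384 CPM in controls. CHGA alone averaged 3493 and 3862 CPM of that. The summed level of 8 markers of the mesenchymal neuroblastoma state was 2453 to 2947 CPM with ML210 and 2317 to 2942 CPM in controls labelled SK-N-BE(2), and 241.8 to 316.1 CPM with ML210 and 248.8 to 318.4 CPM in controls labelled SK-N-AS. The Schwann cell markers summed to 2.61 to 16.3 CPM over the groups. Of the blood cell markers, PTPRC averaged 213.9 and 289.9 CPM in ML210 and control libraries labelled SK-N-BE(2), while LYZ had 0 and 2 reads there. CD14 averaged 0.312 and 0.336 CPM in the same libraries, and CSF1R 0.512 and 0.551 CPM. In ML210 and control libraries labelled SK-N-AS, PTPRC averaged 1.08 and 0.987 CPM, CD14 1.09 and 1.52 CPM, and CSF1R 0.137 and 0.187 CPM. LYZ had 0 reads in both. The part of these markers in the results below was not tested.

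Both batch 1 libraries labelled SK-N-AS stood apart from the rest of their label. A set of 42 protein-coding genes had at least 50 CPM in every library labelled SK-N-BE(2). Each was also under 3% of its mean there in every library labelled SK-N-AS, so the choice itself kept the values below 3%. As a percentage of that mean, their median level was 0.362% and 0.346% in the batch 1 ML210 and control libraries labelled SK-N-AS. It was 1.19% to 1.77% in the other libraries of that label. In libraries labelled SK-N-BE(2), 69 genes chosen by the same rule for the other label had a median of 0.256% to 0.525%. Without both of these libraries, an alternative chosen after seeing the data, the ML210 minus control log2 difference labelled SK-N-AS was -0.86 for RET, -0.76 for GFRA1, -0.06 for GFRA2, -0.10 for GFRA3, 0.66 for ARTN and 0.21 for NRTN. The values with all libraries are given with each gene.

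The promoter of RET is shown because RET is the member whose ML210 and control libraries did not overlap under either label and that had the most reads. The window lies at chr10:43076819-43077026 on the plus strand of GRCh38.p14 (RefSeq). It ends 1 base before the first base of RET in GENCODE release 29, and RefSeq lists 2 start sites for the gene, of which this one is farther upstream. Capitals mark GC boxes, written on this strand as CCGCCC, the reverse complement of GGGCGG.

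RET promoter: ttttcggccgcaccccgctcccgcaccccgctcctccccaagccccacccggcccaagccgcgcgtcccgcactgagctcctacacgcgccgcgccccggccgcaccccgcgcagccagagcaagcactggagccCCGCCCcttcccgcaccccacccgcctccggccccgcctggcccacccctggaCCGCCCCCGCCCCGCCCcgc

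These 208 bases hold 4 GC boxes, 1 neighbouring pair of which shares a base, and 80.8% of the bases are G or C, against a median of 57.7% over 35116 promoter windows of the same length. A GC box stands in 36.7% of those windows on either strand. The E-box CACGTG of MYC proteins, which stands in 4.88% of windows, the antioxidant response element core TGACNNNGC (8.8%) and the AP-1 site TGANTCA (5.53%) have no match in these letters of the RET window on either strand.

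RET was the most abundant member per length in every group, and its level was lower with ML210 under both line labels. RET (ENSG00000165731) spans chr10:43077027-43130351 on the plus strand of GRCh38, with 7 transcripts and 6911 bases of exon in GENCODE release 29. In cells labelled SK-N-BE(2) it stood at 175.5, 256.5 and 295.1 CPM in ML210 libraries of batches 1, 2 and 3, against 624.3, 734.1 and 806.7 CPM in control libraries. Every ML210 library lay below every control library, and the batch 1 library was the lowest in both arms. Against its same-batch control, each ML210 library kept 28.1%, 34.9% and 36.6% of the RET level. The means were 242.4 ± 61.04 CPM with ML210 and 721.7 ± 91.8 CPM in controls (SD, n = 3 each), a log2 difference of -1.57 (SE 0.191), or 2.98-fold lower.

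In cells labelled SK-N-AS, RET stood at 348.3, 265.7 and 281.6 CPM in ML210 libraries, against 595.1, 526 and 468 CPM in control libraries. The ranges were again apart, with the batch 1 library the highest of each arm. The ML210 libraries kept 58.5%, 50.5% and 60.2% of their same-batch controls. The means were 298.5 ± 43.8 CPM with ML210 and 529.7 ± 63.6 CPM in controls (SD, n = 3 each), a log2 difference of -0.83 (SE 0.188), or 1.77-fold lower. In bulk libraries, fewer cells that hold RET RNA and less RET RNA per cell cannot be told apart.

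**Figure D1:**
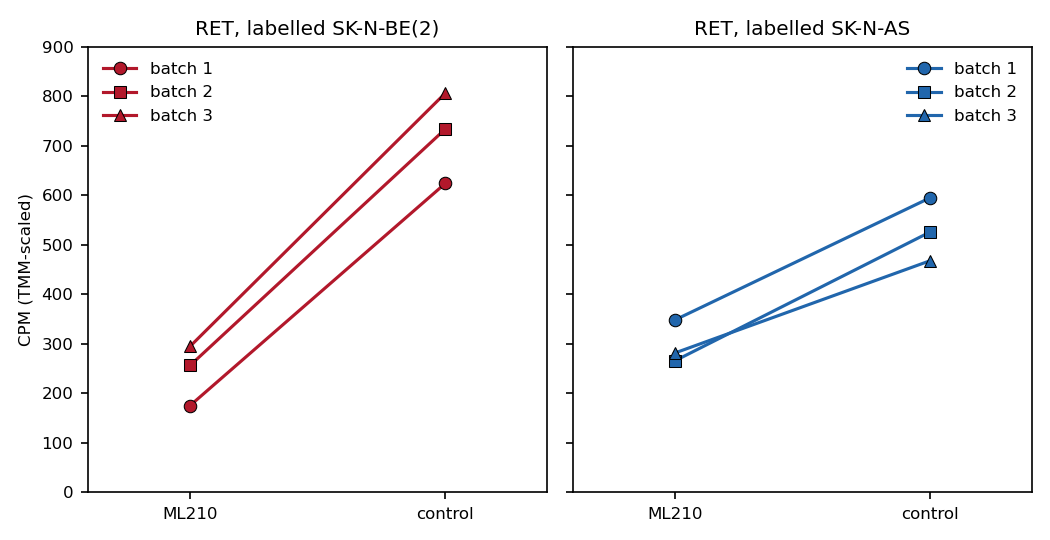
RET level in CPM scaled by TMM (vertical axis) in ML210 and control libraries, with lines joining libraries of the same batch, labelled SK-N-BE(2) on the left and labelled SK-N-AS on the right. All lines have their ML210 end below their control end, and the ML210 ends of both labels lie between 175.5 and 348.3 CPM.

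Among the 9827 genes with a mean of at least 10 CPM, RET ranked 13 from the lowest log2 difference labelled SK-N-BE(2) and 10 from the lowest labelled SK-N-AS. Over all 20304 tested genes, those with lower means included, it ranked 232 and 729 from the lowest. The difference between the responses (that of SK-N-BE(2) cells less that of SK-N-AS cells, by label) was -0.75 (SE 0.264) on the log2 scale. Its rank from the lowest was 60 of the 9827 genes and 1528 of the 20304. Controls labelled SK-N-BE(2) lay above controls labelled SK-N-AS (log2 difference 0.45, SE 0.187, 1.36-fold), while the ML210 libraries of both labels overlapped. When scaled by library totals alone, the control difference was 0.69, and the median over all genes also moved, to 0.243 from -0.005 with TMM. Per length, RET was at 35.1 and 104.4 CPM per kb in ML210 and control libraries labelled SK-N-BE(2), rank 1203 and 311 of 19877 protein-coding genes. Labelled SK-N-AS, it was at 43.2 CPM per kb with ML210 and 76.6 CPM per kb in controls, rank 1106 and 571.

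Of the 3 co-receptors, GFRA2 had 2520 to 14788 summed reads in each group, whereas GFRA1 and GFRA3 were at or near 0 reads in cells labelled SK-N-BE(2). GFRA2, the preferred partner of NRTN, spans chr8:21690403-21812357 on the minus strand, with 8 transcripts and 5716 bases of exon, and overlaps the pseudogene OR6R2P without sharing an exon with it. In cells labelled SK-N-BE(2) it stood at 44.5, 75.2 and 64.0 CPM in ML210 libraries, against 76.8, 78.7 and 60.7 CPM in control libraries. The ranges overlapped, with the batch 1 ML210 library lowest, and the log2 difference was -0.24 (SE 0.327).

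In cells labelled SK-N-AS, GFRA2 stood at 20.2, 9.89 and 13.1 CPM in ML210 libraries, against 22.6, 13.0 and 11.0 CPM in control libraries. Batch 1 was highest in both arms, the ranges overlapped and the log2 difference was -0.12 (SE 0.34). That difference was -0.44 without the batch 1 ML210 library and 0.25 without the batch 1 control, so its sign rests on single libraries. The difference between the responses was -0.11 (SE 0.471), and was 0.20 and -0.49 without those same libraries. Between the controls, GFRA2 averaged 72.1 ± 9.88 CPM labelled SK-N-BE(2) and 15.5 ± 6.19 CPM labelled SK-N-AS (SD, n = 3 each), 4.63-fold higher, with ranges apart and a log2 difference of 2.21 (SE 0.345). Without batch 1 control labelled SK-N-AS that difference was 2.58.

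GFRA3, the preferred partner of ARTN, spans chr5:138252379-138274671 on the minus strand, with 2 transcripts and 2039 bases of exon. The pseudogene RPS27AP18 lies within it on the same strand without sharing an exon. In cells labelled SK-N-BE(2) it had 2, 0 and 4 reads in ML210 libraries, against 2, 6 and 14 reads in control libraries. Over the summed reads, scaled to library size, the ML210 to control ratio was 0.282 (95% interval 0.0936 to 0.718). That interval covers counting error only, and the library ranges overlapped.

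In cells labelled SK-N-AS, GFRA3 stood at 1.38, 4.59 and 5.44 CPM in ML210 libraries, against 0.78, 6.47 and 4.27 CPM in control libraries. The batch 1 library was the lowest of each arm, and the arms overlapped. Their means were 3.80 ± 2.14 CPM with ML210 and 3.84 ± 2.87 CPM in controls (SD, n = 3 each), a log2 difference of 0.00 (SE 0.703), which ran from -0.49 to 0.60 as single libraries were left out. The controls held 22 reads labelled SK-N-BE(2) and 734 reads labelled SK-N-AS, 33.9-fold more per read total in the libraries labelled SK-N-AS (95% interval 22.2 to 54.4, counting error only). The value depends on single libraries: on the log2 scale it was -5.15 (SE 0.956), against -5.92 without batch 3 labelled SK-N-BE(2) and -4.55 without batch 2 labelled SK-N-AS.

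GFRA1, the preferred partner of GDNF, spans chr10:116056925-116273467 on the minus strand, with 5 transcripts and 9678 bases of exon. In cells labelled SK-N-BE(2) it had 0, 0 and 2 reads in ML210 libraries, against 0, 4 and 4 reads in control libraries, a ratio of 0.259 (95% interval 0.0268 to 1.30, counting error only). A count of 0 allows up to 3 reads, which is 0.039 to 0.059 CPM over all libraries. In cells labelled SK-N-AS it stood at 0.551, 0.602 and 0.223 CPM in ML210 libraries, against 0.507, 0.897 and 0.506 CPM in control libraries. The ranges overlapped and the log2 difference was -0.47 (SE 0.596). The controls held 8 reads labelled SK-N-BE(2) and 127 reads labelled SK-N-AS, 16.1-fold more in those labelled SK-N-AS after scaling (95% interval 7.94 to 38.2, counting error only).

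**Figure D2:**
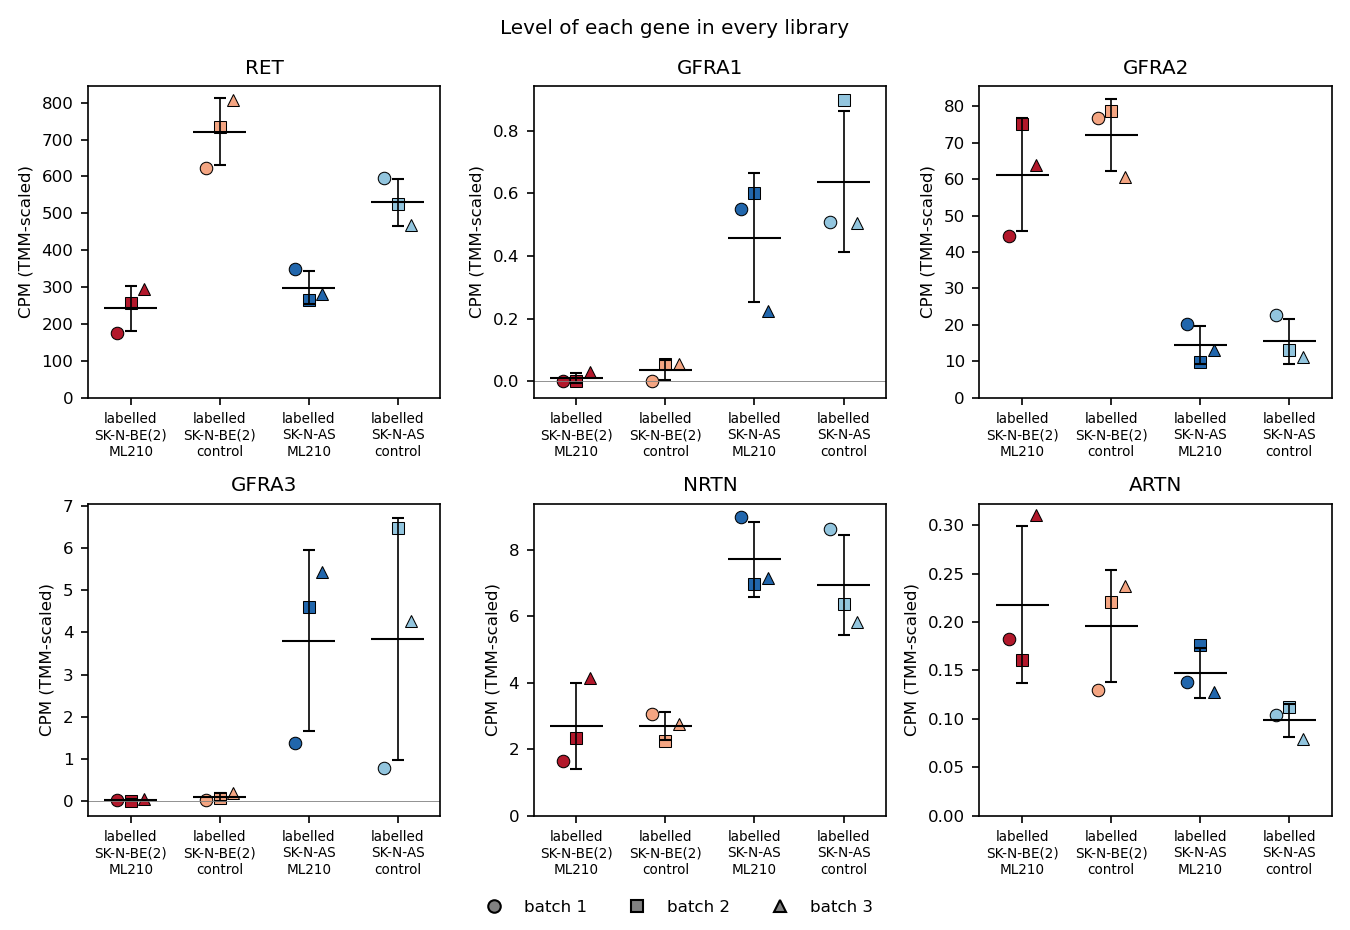
Level of each of the 6 genes in CPM scaled by TMM (vertical axes, own scale each) in every library, in 4 groups of 3, with horizontal lines for the mean and bars for 1 SD, and marker shapes for the batch. RET is lower in ML210 than in control libraries under both labels, whereas GFRA1, GFRA2, GFRA3 and NRTN differ mainly between the labels.

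Taken as parts of their summed level per length, the co-receptors had a different make-up under each label. GFRA2 made up 99.7% to 100% of that sum in ML210 libraries and 99.1% to 99.9% in control libraries labelled SK-N-BE(2). Labelled SK-N-AS, it made up 82.8% in the batch 1 ML210 library and 90.1% in the batch 1 control library, against 42.8% and 46% in the other ML210 libraries and 41% and 47.4% in the other controls. GFRA3 made up nearly all of the remainder there, at 15.9%, 55.7% and 53.5% in ML210 libraries and 8.72%, 57.3% and 51.4% in control libraries. The split between GFRA2 and GFRA3 labelled SK-N-AS therefore rests on which batch is read. The level of RET per length was 3.26, 2.82 and 3.80 times the summed co-receptors in ML210 libraries and 6.72, 7.69 and 10.9 times in control libraries labelled SK-N-BE(2). Labelled SK-N-AS, it was 11.8, 9.5 and 8.19 times with ML210 and 19.6, 13.7 and 16.6 times in controls. Under both labels every ML210 library had the smaller ratio.

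Both ligands were low, and NRTN was the more abundant. NRTN spans chr19:5823802-5828324 on the plus strand, with 1 transcript and 1109 bases of exon. In cells labelled SK-N-BE(2) it stood at 1.64, 2.35 and 4.15 CPM in ML210 libraries, against 3.07, 2.24 and 2.76 CPM in control libraries. The ML210 libraries reached both below and above the controls, and the log2 difference of 0.02 (SE 0.285) was -0.45 without the batch 3 ML210 library. In cells labelled SK-N-AS it stood at 9.01, 6.99 and 7.16 CPM in ML210 libraries, against 8.65, 6.38 and 5.83 CPM in control libraries. Those ranges overlapped, with a log2 difference of 0.15 (SE 0.273), which was 0.02 without the batch 1 ML210 library and 0.34 without the batch 1 control. Between the controls NRTN averaged 2.69 ± 0.421 CPM labelled SK-N-BE(2) and 6.952 ± 1.496 CPM labelled SK-N-AS (SD, n = 3 each), 2.59-fold lower in those labelled SK-N-BE(2) with ranges apart.

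ARTN spans chr1:43933320-43937241 on the plus strand, with 11 transcripts and 2658 bases of exon, and never exceeded 22 reads. In cells labelled SK-N-BE(2) it had 12, 10 and 22 reads in ML210 libraries, against 8, 16 and 17 reads in control libraries, with overlapping ranges and a log2 difference of 0.15 (SE 0.479). In cells labelled SK-N-AS it had 7, 12 and 8 reads in ML210 libraries, against 8, 7 and 5 reads in control libraries. Scaled to library size, the ML210 libraries labelled SK-N-AS lay at 0.128 to 0.176 CPM and the controls at 0.079 to 0.112 CPM, so the ranges did not overlap, but the log2 difference of 0.57 was close to its SE of 0.528. The summed reads, 27 with ML210 and 20 in controls, gave a ratio of 1.51 (95% interval 0.813 to 2.83, counting error only).

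Of the 6 members, 1 labelled SK-N-BE(2) had ML210 and control ranges that did not overlap, RET, which was below. Over all 20304 tested genes 17.4% had ranges apart in that comparison, 8.18% with ML210 below and 9.22% with ML210 above. Labelled SK-N-AS, 2 members had ranges apart, RET below and ARTN above, against 14.9% of all tested genes (8.86% below and 6.01% above). Between the controls all 6 had ranges apart, RET, GFRA2 and ARTN higher labelled SK-N-BE(2) and GFRA1, GFRA3 and NRTN lower, against 74% of all tested genes (36.3% higher and 37.7% lower). All 6 members passed the filter on low counts, GFRA1 and GFRA3 through the libraries labelled SK-N-AS and ARTN through those labelled SK-N-BE(2). In the controls, GFRA1, GFRA3 and ARTN were each higher under the label that let them pass. The values that chose the members include these contrasts, and nothing is read from the counts.

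In the order of levels per length, controls labelled SK-N-BE(2) had RET at 104.4 CPM per kb, then GFRA2 at 12.6, NRTN at 2.42, ARTN at 0.0737, GFRA3 at 0.0508 and GFRA1 at 0.00382 CPM per kb. ARTN and GFRA3 overlapped in that order. Controls labelled SK-N-AS had RET at 76.6 CPM per kb, then NRTN at 6.27, GFRA2 at 2.72, GFRA3 at 1.88, GFRA1 at 0.0658 and ARTN at 0.037 CPM per kb. GFRA2 and GFRA3 overlapped there. The level of NRTN per length rests on its single short transcript in the annotation.

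**Figure D3:**
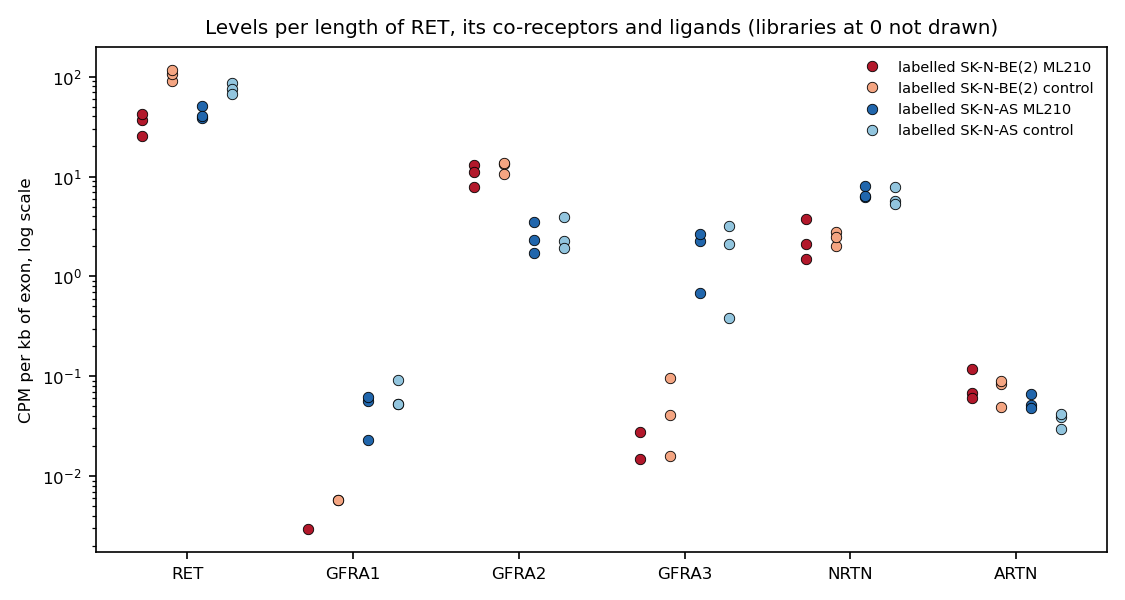
Level of each gene in CPM per kb of exon (vertical axis, log scale) in every library, coloured by group, with libraries at 0 not drawn. RET lies highest in every group, at 104.4 CPM per kb on average in controls labelled SK-N-BE(2), and the order of GFRA2 and NRTN differs between the labels.

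The other ligands and receptors of the family were measured in the same fit. GDNF, which binds GFRA1, stood at 1.32, 1.08 and 1.34 CPM in ML210 libraries and 0.86, 1.26 and 2.12 CPM in control libraries labelled SK-N-BE(2). Labelled SK-N-AS it stood at 0.118, 0.748 and 0.638 CPM with ML210 and 0.26, 0.545 and 0.616 CPM in controls. PSPN (persephin), the ligand of GFRA4, stood at 8.46, 9.85 and 7.25 CPM with ML210 and 8.34, 7.68 and 9.02 CPM in controls labelled SK-N-BE(2), and at 3.01, 3.68 and 3.32 CPM with ML210 and 2.89, 3.36 and 2.69 CPM in controls labelled SK-N-AS. Neither passed edgeR's quasi-likelihood test with ML210 (adjusted p 0.948 and 0.985 labelled SK-N-BE(2), 0.995 and 0.907 labelled SK-N-AS). Between the controls both were higher in those labelled SK-N-BE(2), GDNF by 1.59 (SE 0.514, adjusted p 0.014) and PSPN by 1.49 (SE 0.153, adjusted p 9.34e-07) on the log2 scale. The GDNF call was lost without batch 3 control labelled SK-N-BE(2) (adjusted p 0.0638) and without batch 1 control labelled SK-N-AS (adjusted p 0.0567).

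GDF15, a stress-responsive ligand that signals to RET through GFRAL, stood at 3.19, 1.08 and 0.847 CPM in ML210 libraries, against 0.13, 0.414 and 0.349 CPM in control libraries labelled SK-N-BE(2). The ML210 libraries all lay above the controls, with batch 1 the highest, but the log2 difference of 2.49 (SE 0.634) did not pass the edgeR test (adjusted p 0.0798). It passed with DESeq2 (adjusted p 0.00161) and without the batch 3 ML210 library (adjusted p 0.0217). Labelled SK-N-AS, GDF15 stood at 1.16, 0.455 and 0.893 CPM in ML210 libraries and 1.67, 0.833 and 0.521 CPM in control libraries (adjusted p 0.976), and the difference of the responses, 2.78 on the log2 scale, did not pass either (adjusted p 0.535). Between the controls GDF15 averaged 0.298 CPM labelled SK-N-BE(2) and 1.01 CPM labelled SK-N-AS, a log2 difference of -1.74 (SE 0.634, edgeR adjusted p 0.0269). That call was lost with library totals (adjusted p 0.0527), without the filter (0.0771), and without batch 1 or 3 labelled SK-N-BE(2) (0.0983 and 0.0586) or batch 1 labelled SK-N-AS (0.132).

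GFRA4 and GFRAL, the co-receptors for PSPN and GDF15, had 0 reads in every library, which allows up to 0.059 CPM. NCAM1, an adhesion molecule that also binds GDNF with GFRA1, averaged 36.0 CPM in controls labelled SK-N-BE(2) and 400.8 CPM in controls labelled SK-N-AS. That is a log2 difference of -3.48 (SE 0.0782, edgeR adjusted p 4.94e-13). SDC3, a heparan sulfate proteoglycan that binds GDNF, ran the other way, at 133.8 and 13.1 CPM in the same order, a log2 difference of 3.35 (SE 0.128, edgeR adjusted p 1.54e-10). Neither passed the test with ML210 under either label, and with batch as a block NCAM1 was higher by 0.23 with ML210 labelled SK-N-BE(2) (adjusted p 0.032).

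With ML210 in cells labelled SK-N-BE(2), 4 of 49 tested other genes of the pathway passed the edgeR test, 2 higher and 2 lower, which is 8.16% of them. Over all tested genes 279, or 1.37%, passed (0.818% higher and 0.557% lower). The median log2 difference was -0.04 over the 49 genes and 0.001 over all genes. With batch as a block, 9 of the 49 and 1386 of all genes passed. With a library left out, 0 to 11 pathway genes and 48 to 1242 of all genes passed. The lists were chosen with earlier results of these data known, so nothing is read from this share. The count of 49 comes from 56 genes listed, since 7 had too few reads to test.

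Of 21 adaptors and enzymes that dock on RET or act beside it, 1 passed labelled SK-N-BE(2), DOK1, an adaptor known as an attenuator of receptor kinase signals. It stood at 44.01, 37.27 and 30.7 CPM in ML210 libraries, against 25.3, 26.9 and 25.1 CPM in control libraries. All ML210 libraries were above the controls, and DOK1 rose by 0.54 on the log2 scale (SE 0.111, edgeR adjusted p 0.0317). The call was lost without any 1 of 5 libraries labelled SK-N-BE(2) (adjusted p 0.0649 to 0.151), the exception being batch 3 with ML210.

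Of 12 feedback and output genes of the ERK pathway, 1 rose and 1 fell labelled SK-N-BE(2). DUSP4, a phosphatase that inactivates ERK in the nucleus, stood at 218.1, 206.6 and 166.5 CPM in ML210 libraries, against 145.5, 148 and 128.8 CPM in control libraries, and rose by 0.48 on the log2 scale (SE 0.0878, edgeR adjusted p 0.0188). SPRED1, a membrane inhibitor of RAS and ERK signalling, stood at 47.7, 47.3 and 50.03 CPM in ML210 libraries, against 65.6, 54.8 and 60.8 CPM in control libraries, and fell by 0.32 on the log2 scale (SE 0.0675, edgeR adjusted p 0.0332). For both genes the groups did not overlap. Both calls were lost without batch 1 or 2 with ML210 and without batch 1 or 3 of the controls, with adjusted p of 0.0642 to 0.108 for DUSP4 and 0.0859 to 0.139 for SPRED1.

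Of 16 transcription factors linked to RET expression, 11 were tested and 1 fell labelled SK-N-BE(2), PHOX2A, a homeodomain factor of noradrenergic neurons. It stood at 61.7, 85.8 and 92 CPM in ML210 libraries, against 117.2, 140 and 129.6 CPM in control libraries. The batch 1 ML210 library was the lowest, the groups were apart, and PHOX2A fell by 0.69 on the log2 scale (SE 0.116, edgeR adjusted p 0.017). The adjusted p was 0.0519 without batch 2 with ML210, and 0.0586 and 0.0604 without batch 2 or 3 of the controls. Labelled SK-N-AS, PHOX2A stood at 513.2, 505.1 and 498 CPM in ML210 libraries, against 610.5, 613.1 and 604.3 CPM in control libraries. Those ranges were apart too, but the log2 difference of -0.27 (SE 0.115) did not pass (edgeR adjusted p 0.701), nor did the difference of the responses, -0.42 (adjusted p 0.625).

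With ML210 in cells labelled SK-N-AS, 0 of the 49 genes passed the edgeR test, against 0.0296% of all tested genes (0.0246% higher and 0.00493% lower). At an unadjusted edgeR p under 0.05 there were 4 of the 49, against 1398 of all 20304 tested genes. With DESeq2 0 of the 49 passed. With batch as a block 1 passed, TLX2, a homeobox factor of neural crest derivatives, which was lower by 0.34 on the log2 scale (adjusted p 0.0352). For the difference of the responses 0 of 49 passed with edgeR and with DESeq2, against 0.00493% of all tested genes with edgeR. At an unadjusted edgeR p under 0.05 there were 10 of the 49, against 1454 of all 20304 tested genes. Without the batch 3 ML210 library labelled SK-N-BE(2), 3 of the 49 and 156 of all genes passed. Of the 3, SPRY4 and ETV4 had the lower response labelled SK-N-BE(2) and EGR1 the higher one.

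**Figure D4:**
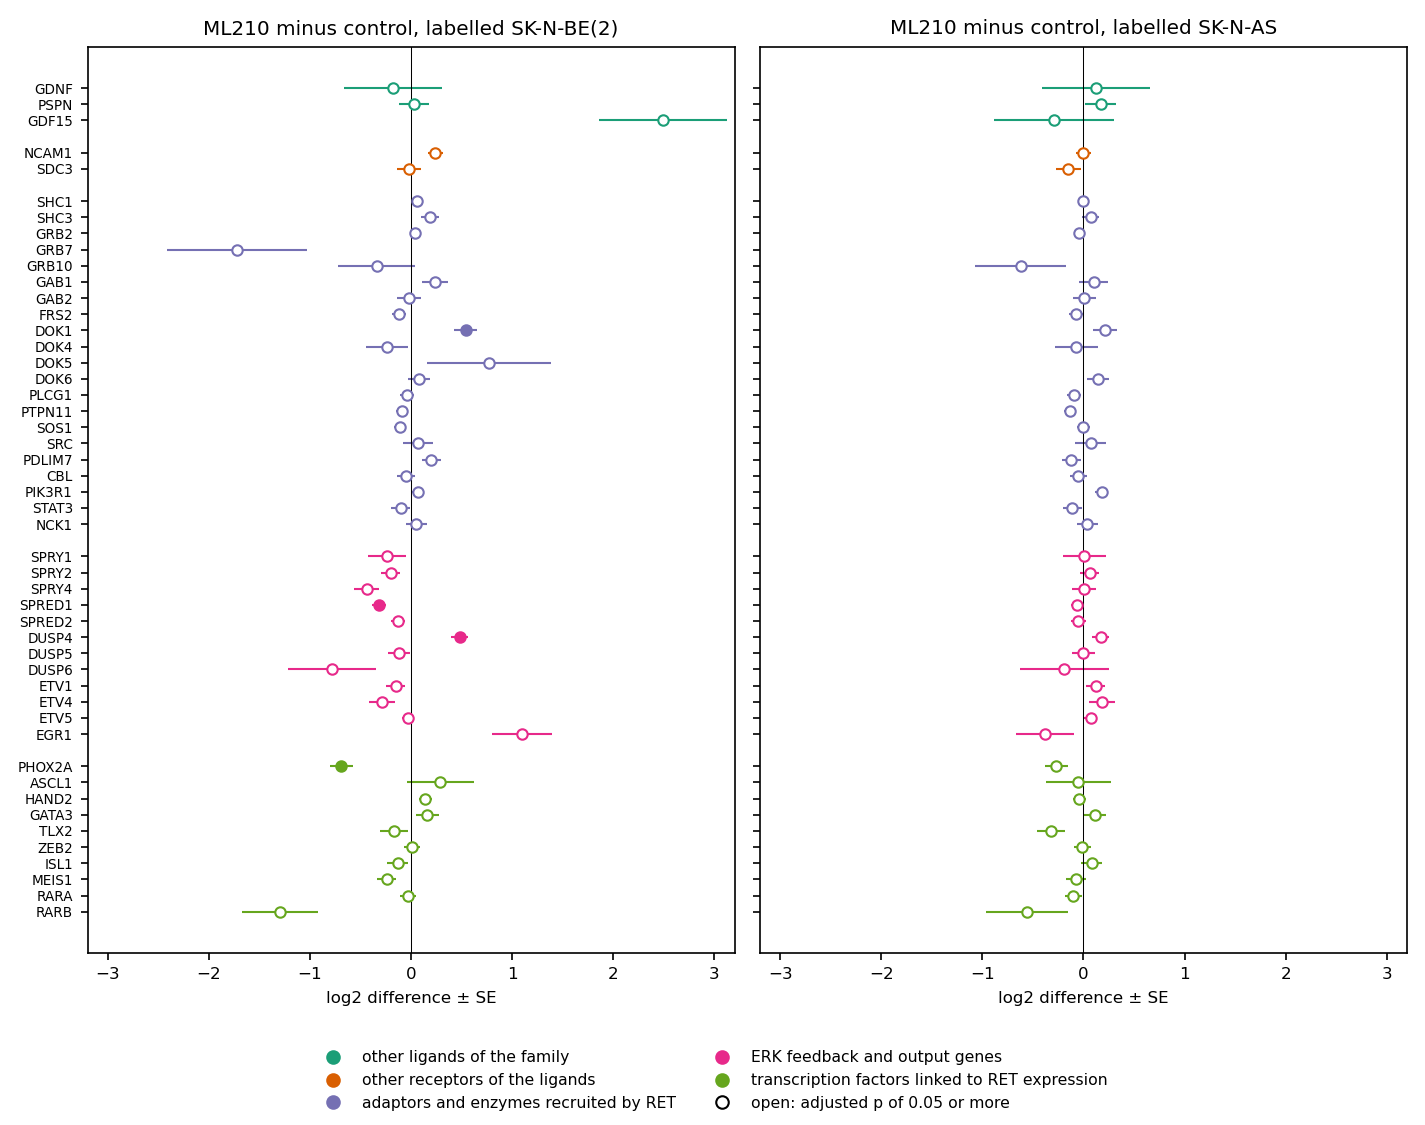
ML210 minus control log2 difference (horizontal axis, bars for 1 SE) of tested other genes of the pathway, labelled SK-N-BE(2) on the left and labelled SK-N-AS on the right, coloured by list, with filled points for an adjusted p under 0.05. The filled points are DOK1, SPRED1, DUSP4 and PHOX2A on the left, and GRB7 and DOK5 are not drawn on the right because a group had 3 reads or fewer.

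Between the controls, 44 of the 49 genes passed the edgeR test, 27 higher and 17 lower labelled SK-N-BE(2), or 89.8%, against 69.2% of all tested genes (33.9% higher and 35.2% lower). Scaled by library totals alone, 31 were higher and 13 lower. Nothing is read from this share either, since the lists were chosen with earlier results known. Of the adaptors, 12 were higher and 6 lower. SHC1, which links phosphorylated RET to GRB2, averaged 511.9 CPM in controls labelled SK-N-BE(2) and 209.2 CPM in controls labelled SK-N-AS (log2 difference 1.29, edgeR adjusted p 1.3e-10). Its neuronal relative SHC3 averaged 36.3 and 162.9 CPM in that order (log2 difference -2.17, edgeR adjusted p 1.28e-10). GAB1, a docking protein for PI3K, averaged 35.7 CPM labelled SK-N-BE(2) and 4.02 CPM labelled SK-N-AS, and DOK1 averaged 25.8 and 4.99 CPM (edgeR adjusted p 2.1e-10 and 5.82e-10).

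Of the ERK feedback and output genes, 7 were higher and 4 lower in controls labelled SK-N-BE(2). SPRY1 and SPRY2, inhibitors of receptor kinase signalling, averaged 318.6 and 225.8 CPM in controls labelled SK-N-BE(2), against 9.503 and 49.76 CPM in controls labelled SK-N-AS (edgeR adjusted p 1.2e-08 and 2.46e-10). SPRED1 was also higher, by 0.75 on the log2 scale (adjusted p 2.4e-07), whereas DUSP4 averaged 140.8 and 249.7 CPM in that order (adjusted p 1.33e-06). Of the transcription factors 5 were higher and 5 lower. MEIS1, a homeobox factor, averaged 54.9 CPM labelled SK-N-BE(2) and 14.2 CPM labelled SK-N-AS, PHOX2A averaged 128.9 and 609.3 CPM, and ISL1, a LIM homeodomain factor, averaged 39.2 and 105.9 CPM (edgeR adjusted p 6.65e-10, 4.4e-09 and 3.51e-08). HAND2 passed as lower with TMM, but its log2 difference was 0.01 with library totals.

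The genes nearest to RET over the 12 libraries were found by the root mean square difference between their log2 CPM profiles. Each profile was centred on its own mean, and the genes are given without a test. They were chosen on these same libraries, so a profile like that of RET follows from the choice. HTR2B, a serotonin receptor, was nearest, at 0.188 on the log2 scale. It averaged 3.39 ± 0.957 CPM with ML210 and 7.82 ± 0.394 CPM in controls labelled SK-N-BE(2), and 3.31 ± 0.994 and 5.76 ± 0.905 CPM in that order labelled SK-N-AS (SD, n = 3 each). Its log2 differences with ML210 were -1.20 (SE 0.231) and -0.80 (SE 0.231), with ranges apart under both labels. The next were PLEKHA6, TLE6, a relative of the Groucho corepressors, ADAMTS2, which trims procollagen, and PCDHGC4, a protocadherin whose gene shares exons with its cluster, at 0.345, 0.399, 0.407 and 0.408. Labelled SK-N-BE(2) their ML210 minus control differences were -0.98, -1.13, -1.36 and -0.57 (SE 0.266, 0.188, 0.368 and 0.226), with all ranges apart. Labelled SK-N-AS the differences were -0.23, -0.27, -0.44 and -0.43 (SE 0.264, 0.189, 0.364 and 0.227). There the ranges of PLEKHA6, TLE6 and ADAMTS2 overlapped, and those of PCDHGC4 were apart.

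Among the nearest genes to GFRA2 were SYT9, a synaptotagmin, and PLCE1, a phospholipase C, at 0.224 and 0.246 on the log2 scale. Those to NRTN were SEMA6D, CTSV and RCN3, at 0.148, 0.2 and 0.2. Those to ARTN were ENSG00000256591, CYP27A1 and ZNF653, at 0.203, 0.211 and 0.226. The nearest to GFRA1 (ZNF630, SHD and IGFBPL1) and GFRA3 (DOC2B, AJAP1 and RTL1) lay farther off, at 0.423 to 0.489 and 0.559 to 0.717. With a prior count of 0.5 in place of 2 in the log2 CPM, all 5 neighbours of RET and all 3 of GFRA2 and of NRTN were found again, 2 of 3 of ARTN, and 0 of 3 of GFRA1 and of GFRA3.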

How the data were processed

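The authors deposited raw counts per gene, without normalization, in 1 table of 61552 genes. Per the submitters' processing notes, reads were handled with HISAT2 2.2.1, featureCounts 2.0.5, FastQC and a Trimmomatic listed as 1.4, on GRCh38/hg38. Libraries were stranded mRNA preparations per the labels' protocols. The sources used here do not state the strand setting or how multi-mapping reads were treated, so reads of overlapping genes may be mixed.

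Symbols were matched for 61399 identifiers, and coordinates and exon lengths are from GENCODE release 29. The filterByExpr function of edgeR 4.0.16 (R 4.3.3), by group, left 20304 genes, and CPM were computed from TMM-scaled library totals. All 12 libraries entered 1 quasi-likelihood fit of group means with 8 residual degrees of freedom and a common dispersion of 0.0223, with two-sided tests and Benjamini-Hochberg adjustment over all tested genes, called at an adjusted p under 0.05. All adjusted p are from this edgeR fit unless another is named. DESeq2 1.42.0, library totals, no filter, a replicate block and each library left out were alternatives. The scripts were tested on simulated data.

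The members and lists were chosen with earlier results of these data known. Named were all members and other family ligands and receptors, of each list every called gene where a comparison had 5 or fewer, otherwise up to 4 with the smallest adjusted p, and the nearest genes. HAND2, TLX2, SPRY4, ETV4, EGR1, ETV1 and ISL1 were named beyond that rule in places, after their values were seen. Some genes that the rule takes are not reported here. Replicate numbers equal the batch label and were treated as paired in the block. Deviations from the group means of same-batch ML210 and control libraries correlated at 0.096, 0.12 and 0.169 labelled SK-N-BE(2), and at 0.357, 0.068 and 0.121 labelled SK-N-AS. Different-batch libraries correlated at -0.1 to -0.007 labelled SK-N-BE(2) and at -0.269 to 0.189 labelled SK-N-AS, so under SK-N-AS batches 2 and 3 were not told apart and the pairing rests on the label. Intervals and floors of 3 reads cover counting error only, and replicate counts differed beyond sampling noise (chi-square per degree of freedom 11.5 to 61.6).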

Additional observations from a re-analysis of the deposited data

Results flagged for a closer look

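For 4 of the 49 tested pathway genes every ML210 minus control pair went one way labelled SK-N-BE(2) and the other way labelled SK-N-AS. The share of all tested genes that did so was not counted, so nothing is read from this number. The difference of the responses on the log2 scale (SK-N-BE(2) less SK-N-AS, by label) was 1.49 for EGR1, an immediate early transcription factor (edgeR adjusted p 0.509). EGR1 stood at 85.2, 110.9 and 45.1 CPM with ML210 and 40.7, 40 and 31.6 CPM in controls labelled SK-N-BE(2), and at 281.1, 186.4 and 222.6 CPM with ML210 and 310.3, 323.7 and 266.4 CPM in controls labelled SK-N-AS. The difference was -0.26 for ETV1, 0.18 for HAND2 and -0.21 for ISL1 (edgeR adjusted p 0.727, 0.729 and 0.812). Some of their pairs lay at or near 0. The batch 3 pair of ETV1 labelled SK-N-BE(2) rounded to 0 on the log2 scale. The batch 3 pairs of ISL1 were -0.01 labelled SK-N-BE(2) and 0.01 labelled SK-N-AS. None of the 4 passed the test of the difference. The test for a single outlying library needs groups of at least 4, and was not applied to these groups of 3.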

How the results depend on the processing

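Of the log2 differences of the 6 members, 248 alternative values moved by less than the spread between replicates and 46 moved by more. RET was lower with ML210 in each alternative run, at -1.76 to -1.40 labelled SK-N-BE(2) and -0.95 to -0.74 labelled SK-N-AS as single libraries were left out, and at -1.60 and -0.83 with the replicate block. Counts of called genes moved more, and the cause was not tested. Labelled SK-N-BE(2), the count of all genes was 790 with DESeq2, 556 without the filter, 1386 with the replicate block and 48 to 1242 with a library left out, against 279. The pathway count was 8, 9 and 0 to 11 with DESeq2, the replicate block and a library left out, against 4. Labelled SK-N-AS, all genes gave 52, 33 and 38 with DESeq2, no filter and the replicate block and 3 to 6 with a library left out, against 6, and the pathway 1 with the block, against 0. For the difference of the responses, all genes gave 45, 24 and 85 with DESeq2, no filter and the block, 1 to 156 with a library left out, and 0 without both batch 1 libraries labelled SK-N-AS, an alternative chosen after seeing the data, against 1. The pathway gave 0 to 3 with a library left out. The control counts were 13401 to 13541 over all genes and 40 to 42 over the pathway with a library left out, and 60.7% of called genes were higher labelled SK-N-BE(2) with library totals, against 49.1% with TMM. Members with under 50 reads in a group (GFRA1 and GFRA3 labelled SK-N-BE(2), ARTN under both) were limited by counting error.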
